A study of Mus musculus with 14 samples.

Results

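Gene counts of cortical microglia taken 60 and 90 days after an experimental stroke were set against those taken 21 days after it. The comparison used 6 of the 14 libraries of the series, 2 each from day 60, day 90 and day 21. Those of days 60 and 90 were joined into 1 chronic group of 4. They were chosen by the day and the replicate number in the library names. The 2 day 21 libraries disagreed with each other, so both are given separately throughout. The genes described are in general those whose 4 chronic libraries all lay on one side of both day 21 libraries. Exceptions are a panel of 12 genes, 3 interferon genes named for a difference between the chronic days, and genes named for a difference between replicates.

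All animals were C57BL/6 mice, labelled as 8 to 10 weeks old. In every stroke group the distal branch of the middle cerebral artery was tied off for good, and both common carotid arteries were closed for 7 min. Sham animals, used here for background levels, had a lesion of the skull surface and no arterial closure. Microglia were collected from the cerebral cortex by cell sorting. The sort markers, the number of animals behind a library and the side or zone of cortex taken were not given in the sources used here. Nothing in the labels ties the replicates of a day to separate animals. The p-values therefore cover only how far these libraries spread, which may be technical.

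Microglia are the resident macrophages of the brain. Dead tissue and myelin left by an infarct are taken up by microglia and by macrophages that enter from blood and meninges, and the lipid they carry is broken down in lysosomes, stored in droplets or exported. The nuclear receptors PPAR gamma, encoded by Pparg, and LXR alpha, encoded by Nr1h3, sense fatty acids and oxidised sterols and switch on uptake and export genes such as the scavenger receptor gene Cd36. Resting microglia express a set of homeostatic genes, among them P2ry12, Tmem119 and Sall1, that macrophages from blood express little or not at all.

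The libraries differed in depth and in makeup. Total counts were 27842666 and 183895519 at day 60, 28758420 and 191692779 at day 90 and 16939261 and 116539697 at day 21 for replicates 1 and 2, so that replicate number and depth go together. Levels of genes are in CPM, counts scaled to a common library total with TMM factors, with replicate 1 given before replicate 2. Over all genes tested the 2 libraries of a day correlated with r = 0.929 at day 60, 0.942 at day 90 and 0.824 at day 21, and day 21 was lowest of the 7 groups. They were over 4-fold apart in 8.70% of genes at day 60, 4.63% at day 90 and 25.4% at day 21. Microglial markers, 8 genes summed as CPM of total counts, ranged from 3493 to 7430 in the 4 chronic libraries, against 6573 in day 21 replicate 1, 25076 in day 21 replicate 2 and 2525 and 1535 in the sham libraries. Neutrophil markers summed to 915 to 4613 CPM in the chronic libraries, 7992 and 935 CPM in the day 21 libraries and 22419 and 33639 CPM in the sham libraries. Sham is therefore given only as a level beside the called genes.

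Of 13861 genes tested 18 (0.13%) were called between the chronic group and day 21 by edgeR's quasi-likelihood test at an adjusted p under 0.05. Of these 13 (0.0938%) were higher and 5 (0.0361%) lower at days 60 and 90. The higher ones included the macrophage elastase gene Mmp12 and the lipid genes Cd36 and Pparg, and the lower ones the immediate early gene Egr1 and the cytokine signalling inhibitor gene Socs3. All 18 had their 4 chronic libraries on one side of both day 21 libraries, and all 18 were also called by limma-voom and by DESeq2. limma-voom called 220 genes (1.59%), 108 higher (0.779%) and 112 lower (0.808%). DESeq2 called 581 (4.19%), 264 higher (1.9%) and 317 lower (2.29%). The count of 18 rests on the spread shared over all 14 libraries and on day 21. Fits to the 6 libraries alone with the replicate block called 0 genes (3097 at an unadjusted p under 0.05 with a mean per day, 1865 as 4 against 2). Without the block the 6 libraries gave 9. Without day 21 replicate 2 no gene was called (1346 at an unadjusted p under 0.05), and without day 21 replicate 1 564 genes were. Without any 1 of the 4 chronic libraries 3 or 4 were called.

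**Figure D1:**
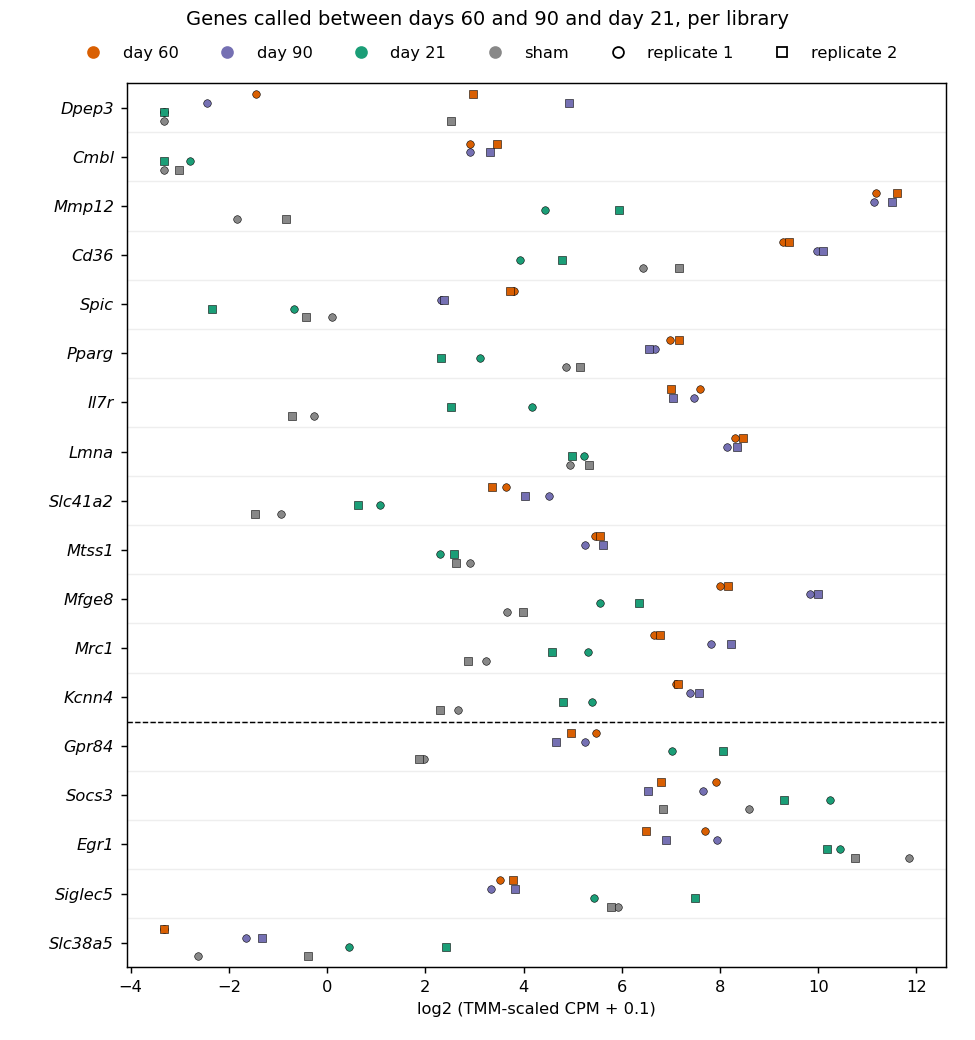
TMM-scaled CPM of the 18 called genes on a log2 axis (0.1 added), 1 point per library, with circles for replicate 1 and squares for replicate 2 and colours for day 60, day 90, day 21 and sham. Above the dashed line all 4 chronic points lie right of both day 21 points (13 genes), and below it left of them (5 genes).

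The secreted protease gene Mmp12, which encodes an elastase made by macrophages, had the largest difference among called genes whose log2 CPM averaged 3 or more. It had 2316 and 3109.7 CPM at day 60 and 2256 and 2898 CPM at day 90, against 21.6 and 61.9 CPM at day 21 and 0.182 and 0.463 CPM in sham. The 4 chronic libraries lay close together, far above both day 21 libraries, and sham was lowest. The log2 fold change was 6.13 ± 0.59 (SE, 4 against 2 libraries, edgeR adjusted p = 0.00567). An exon of Mmp12 overlaps the gene Mmp1b on the opposite strand, and the strand setting of the counting was not given in the sources used here.

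Cd36 and Pparg rose too, 2 of 30 lipid genes, as did Cd36, Mfge8 and Mrc1, 3 of 28 phagocytic receptor and bridging genes. Cd36, a scavenger receptor for oxidised lipoproteins and fatty acids, had 623 and 683 CPM at day 60 and 1006 and 1102 CPM at day 90, against 15.1 and 27.5 CPM at day 21 and 85.8 and 143 CPM in sham. Every chronic library was also above both sham libraries. For Cd36 edgeR gave a log2 fold change of 5.28 ± 0.63 (adjusted p = 0.0170). Pparg had 126 and 143 CPM at day 60 and 102 and 94.5 CPM at day 90, against 8.59 and 4.90 CPM at day 21, with 29.1 and 35.5 CPM in sham. It rose by 4.13 ± 0.39 on the log2 scale (edgeR adjusted p = 0.00567). Mfge8 encodes the bridging protein that links phosphatidylserine on dying cells to integrins of phagocytes. It had 258 and 286 CPM at day 60 and 914 and 1025 CPM at day 90, against 46.7 and 81.8 CPM at day 21. Both day 90 libraries were above both day 60 libraries. For Mfge8 edgeR gave a log2 fold change of 3.02 ± 0.35 (adjusted p = 0.0156). The mannose receptor gene Mrc1, a marker of macrophages at brain borders and of alternative activation, had 100.1 and 109.8 CPM at day 60 and 227 and 301 CPM at day 90, against 39.6 and 23.9 CPM at day 21. For Mrc1 edgeR gave a log2 fold change of 2.40 ± 0.33 (adjusted p = 0.0268).

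Other genes that rose fall into no single group. Il7r, the interleukin 7 receptor chain of lymphocytes and some macrophages, had 192 and 128 CPM at day 60 and 178 and 132 CPM at day 90, against 17.9 and 5.63 CPM at day 21, with 0.728 and 0.511 CPM in sham. For Il7r edgeR gave a log2 fold change of 3.91 ± 0.39 (adjusted p = 0.00597). Summed as CPM of total counts, the other 21 markers of T and NK cells stood at 128 to 268 in the chronic libraries and at 205 and 125 in the day 21 libraries. Their ranges overlapped, while those of Il7r did not, as for every called gene. Of the whole list 7 of 22 genes, Il7r among them, lay above both day 21 libraries and 2 below. The part of T and NK cells in the difference of Il7r was not tested. Lmna, which encodes lamins A and C of the nuclear envelope, had 319 and 355 CPM at day 60 and 282 and 328 CPM at day 90, against 37.3 and 31.6 CPM at day 21. For Lmna edgeR gave a log2 fold change of 3.19 ± 0.40 (adjusted p = 0.0177). The actin-binding scaffold gene Mtss1 had 43.9 and 47.1 CPM at day 60 and 37.8 and 49.0 CPM at day 90, against 4.84 and 5.92 CPM at day 21. For Mtss1 edgeR gave a log2 fold change of 3.04 ± 0.39 (adjusted p = 0.0203). Kcnn4, a calcium-activated potassium channel gene, had 138 and 142 CPM at day 60 and 167 and 190.5 CPM at day 90, against 42.1 and 28.0 CPM at day 21. For Kcnn4 edgeR gave a log2 fold change of 2.20 ± 0.31 (adjusted p = 0.0268). In these 4 genes the chronic libraries lay close together and the gap to day 21 was wider than their range.

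The remaining genes that rose, 4 in number, had low levels and were singled out after their values were seen. Spic, a transcription factor gene of iron-recycling macrophages, had 13.9 and 13.1 CPM at day 60 and 4.90 and 5.07 CPM at day 90, against 0.523 and 0.0974 CPM at day 21. For Spic the edgeR adjusted p was 0.0268. Slc41a2, a magnesium transporter gene, had 12.3 and 10.2 CPM at day 60 and 22.7 and 16.3 CPM at day 90, against 2.01 and 1.45 CPM at day 21. For Slc41a2 the edgeR adjusted p was 0.0367. In sham Spic had 0.970 and 0.642 CPM, above both day 21 libraries, and Slc41a2 had 0.424 and 0.261 CPM, below both. Cmbl, a hydrolase gene, had 193 and 1360 counts at day 60 and 269 and 1966 counts at day 90, against 1 and 0 counts at day 21. For Cmbl the edgeR adjusted p was 0.0268. Dpep3, a membrane dipeptidase gene, had 7 and 960 counts at day 60 and 3 and 6062 counts at day 90, against 0 counts in both day 21 libraries. For Dpep3 the edgeR adjusted p was 0.0282, and 0.533 without the replicate block. In sham Dpep3 had 0 and 5.67 CPM, the latter near the 7.74 CPM of day 60 replicate 2. Nearly all Dpep3 counts thus came from replicate 2, and an exon of Dpep3 overlaps the gene Gm45752 on the opposite strand.

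The genes that fell were 5, Egr1, Socs3, Gpr84, Siglec5 and Slc38a5. Egr1, an immediate early transcription factor gene, had 208 and 89.7 CPM at day 60 and 245 and 119 CPM at day 90, against 1387 and 1156 CPM at day 21. Sham had the highest levels, 3666 and 1734 CPM. For Egr1 edgeR gave a log2 fold change of -3.04 ± 0.37 (adjusted p = 0.0177). Socs3, the feedback inhibitor of cytokine signalling through STAT3, had 241 and 111 CPM at day 60 and 200.2 and 93.1 CPM at day 90, against 1206 and 633 CPM at day 21. For Socs3 edgeR gave a log2 fold change of -2.54 ± 0.39 (adjusted p = 0.0410). In sham it had 386 and 115 CPM. In both genes replicate 1 exceeded replicate 2 at every one of these days. Gpr84, a receptor for medium-chain fatty acids induced in activated microglia, had 44.1 and 31.3 CPM at day 60 and 38.0 and 25.4 CPM at day 90, against 130.5 and 267 CPM at day 21. In sham it had 3.82 and 3.54 CPM. For Gpr84 edgeR gave a log2 fold change of -2.52 ± 0.34 (adjusted p = 0.0268).

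The symbol Siglec5 is a synonym of Siglecf and of Siglece in RefSeq, and since Siglece has a row of its own it was read as Siglecf, a receptor gene of the sialic acid-binding Siglec family. It had 11.3 and 13.7 CPM at day 60 and 10.1 and 14.1 CPM at day 90, against 42.9 and 179.6 CPM at day 21. Both day 21 libraries were well above the highest chronic one. In sham Siglec5 had 60.5 and 54.7 CPM, between the day 21 libraries. For Siglec5 edgeR gave a log2 fold change of -3.06 ± 0.40 (adjusted p = 0.0239). Slc38a5, a glutamine transporter gene singled out after its values were seen, had 0 counts in both day 60 libraries, 0.220 and 0.300 CPM at day 90 and 1.26 and 5.25 CPM at day 21. For Slc38a5 the edgeR adjusted p was 0.0268.

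The 250 bases before a start are shown for Mmp12, Cd36 and Mrc1, which rose, and for Siglec5, which fell, as examples of promoters that hold a motif searched for. Those of Pparg, Il7r, Lmna and Mfge8 and another start of Mmp12 also held a match and are not printed. The printed ones are from RefSeq promoters of build GRCm38.p6, 5′ to 3′ along the gene's strand, and capitals mark motif matches. The Mmp12 promoter, at start 2 of the gene (chr9:7347124-7347373, plus strand), holds 1 AP-1 site, TGACTCA. The Cd36 promoter (chr5:17835897-17836146, minus strand) holds 1 Y box, CCAAT. The Mrc1 promoter (chr2:14229164-14229413, plus strand) holds 1 Y box and 3 PU.1 cores, GAGGAA, and the Siglec5 promoter (chr7:43351091-43351340, plus strand) 1 PU.1 core. A match on the other strand reads as the reverse complement.
Mmp12 (start 2): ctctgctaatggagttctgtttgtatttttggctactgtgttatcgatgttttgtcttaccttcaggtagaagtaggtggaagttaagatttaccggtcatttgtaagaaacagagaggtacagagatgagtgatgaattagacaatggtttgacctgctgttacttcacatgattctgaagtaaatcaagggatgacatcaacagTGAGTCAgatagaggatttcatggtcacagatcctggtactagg
Cd36: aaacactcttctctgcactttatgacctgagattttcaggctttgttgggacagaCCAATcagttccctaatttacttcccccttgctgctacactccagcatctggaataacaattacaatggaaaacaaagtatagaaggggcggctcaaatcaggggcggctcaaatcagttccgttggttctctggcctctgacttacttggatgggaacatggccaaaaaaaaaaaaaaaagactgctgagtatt
Mrc1: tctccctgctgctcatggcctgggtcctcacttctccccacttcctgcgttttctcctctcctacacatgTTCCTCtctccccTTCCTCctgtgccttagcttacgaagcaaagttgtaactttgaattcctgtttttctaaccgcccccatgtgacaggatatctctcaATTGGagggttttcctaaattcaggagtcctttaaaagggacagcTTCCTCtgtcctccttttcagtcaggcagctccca
Siglec5: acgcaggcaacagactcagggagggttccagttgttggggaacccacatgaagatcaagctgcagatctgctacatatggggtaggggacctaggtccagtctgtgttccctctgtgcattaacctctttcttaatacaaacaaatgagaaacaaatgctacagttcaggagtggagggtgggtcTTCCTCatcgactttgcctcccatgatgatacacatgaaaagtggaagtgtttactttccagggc

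Promoters were found for 16 of the 18 called genes, 12 higher and 4 lower. Both strands were searched, and no overlap between motifs was removed. CCAAT stood before 5 of the 12 higher and 0 of the 4 lower genes, and in 33.8% of the 32851 promoters of the table. GAGGAA stood before 4 higher genes and 1 lower gene and in 23.3% of all promoters, and TGACTCA before 1 higher gene, Mmp12, and in 4.46%. None of the 16 held the cyclic AMP element TGACGTCA (1.55% of all promoters) or the sterol element TCACNNCAC (3.11%). Nor did any hold the core of the interferon-stimulated response element (2.98%) or the DR1 repeat of nuclear receptors (0.0335%), the last added after the values were seen. Several genes have more than 1 start, 20 in all, and these counts take a gene as holding a motif where any of its starts does.

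Because depth goes with replicate number, the difference from day 21 was also taken within each number. Over all genes the 2 sets of differences had r = 0.182, a description across genes that share libraries, and the same sign in 59.7% of genes. Mmp12 differed by 6.72 log2 units within replicate 1 and 5.60 within replicate 2. In the same order Cd36 differed by 5.71 and 4.98, Pparg by 3.72 and 4.56, and Egr1 by -2.62 and -3.49. The called genes had to have 1 sign, since none overlapped between the groups.

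**Figure D2:**
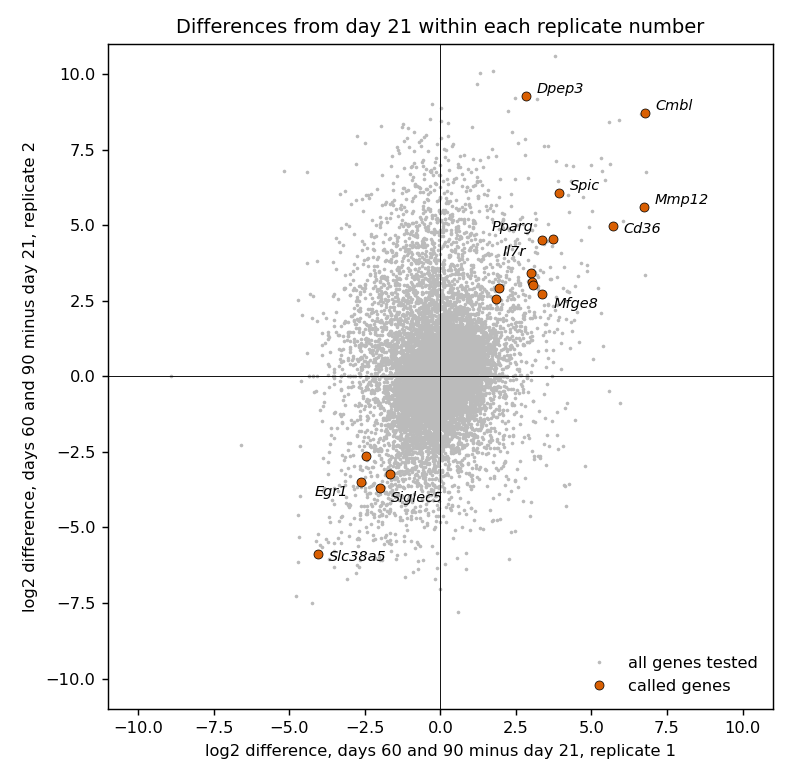
Log2 difference of days 60 and 90 from day 21 within replicate 1 (x axis) and within replicate 2 (y axis), 1 point per gene, grey for the 13861 genes tested and orange for the 18 called. Grey points spread over all 4 sign combinations (r = 0.182), and the called genes lie far from the centre where both differences have 1 sign.

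Both chronic days were also set against day 21 on their own, with the same 2 day 21 libraries in each. At day 60 edgeR called 7 genes (0.0505%), Mmp12, Cd36, Pparg, Il7r, Lmna, Mtss1 and Spic, all higher. At day 90 it called 12 (0.0866%), all higher, namely the first 6 of these with Mfge8, Mrc1, Kcnn4, Slc41a2, Cmbl and Dpep3. No gene was called lower on either day alone by edgeR (1090 at day 60 and 497 at day 90 at an unadjusted p under 0.05). limma-voom called 8 and 10 lower and DESeq2 387 and 107. Mfge8 differed from day 21 by 2.10 ± 0.36 at day 60 and 3.94 ± 0.39 at day 90 on the log2 scale. The difference between the days was 1.84 ± 0.35 (edgeR adjusted p = 0.336). Between days 90 and 60 edgeR called 0 genes (0%, 671 at an unadjusted p under 0.05), limma-voom 1 and DESeq2 51, of which 42 (0.303%) were lower at day 90.

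Many interferon-induced genes lay on different sides of day 21 on the 2 chronic days. Of 34 tested, 15 (44.1%) had both day 60 libraries above and both day 90 libraries below both day 21 libraries, against 0.945% of all genes. The 3 genes given here were picked after their values were seen, and edgeR called no interferon gene against day 21 on either day (15 at an unadjusted p under 0.05 on each). limma-voom called none either. DESeq2 called 7 higher at day 60, against 347 of all 13861 genes tested, and 7 lower at day 90, against 107. Irf7, the transcription factor that amplifies the interferon response, had 581 and 808 CPM at day 60 and 74.7 and 106 CPM at day 90, against 287 and 172 CPM at day 21. Isg15, a ubiquitin-like modifier, had 70.1 and 56.8 CPM, 6.77 and 4.17 CPM and 29.7 and 12.4 CPM at those days. The antiviral gene Rsad2 had 170.0 and 136 CPM, 27.8 and 25.5 CPM and 77.0 and 43.2 CPM. In all 3 genes day 60 was above and day 90 below both day 21 libraries. Of 34 interferon genes tested, 29 had both day 90 libraries below both day 60 libraries and 0 above, against 22.6% and 28.8% of all genes. Their median log2 difference was -2.09 between day 90 and day 60, against 0.07 over all genes. DESeq2 called 19 of them lower at day 90 and edgeR and limma-voom 0, with an edgeR adjusted p for Irf7 of 0.161. Joined into 1 chronic group they gave 0 genes above and 1 below both day 21 libraries and a median of -0.02.

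Over all genes 3174 (22.9%) had their 4 chronic libraries on one side of both day 21 libraries, 1606 above (11.6%) and 1568 below (11.3%). Each gene list is read against these shares, without a test of the list. Without TMM factors the log2 fold change of the median gene shifted by -0.27, and the counts were 897 above and 2011 below. For the 7 lists whose number above both was lower by 3 or more under that scaling, the number under it is given too. A further 27 genes, 14 higher and 13 lower, had an edgeR adjusted p from 0.05 to 0.06, and all 27 lay on one side. Several of them are list members named below with their adjusted p.

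Lipid genes lay more often above than below day 21. Of 30 genes of lipid uptake, storage and efflux 11 (36.7%) lay above and 2 (6.67%) below both day 21 libraries, and edgeR called 2, Cd36 and Pparg, both higher. The median log2 fold change was 0.39, against 0.01 over all genes. Nr1h3 had 119 and 176 CPM at day 60 and 82.5 and 103 CPM at day 90, against 15.96 and 3.60 CPM at day 21. For Nr1h3 edgeR gave a log2 fold change of 3.74 ± 0.63 (adjusted p = 0.0533). Lpl, lipoprotein lipase, had 4433 and 4621 CPM at day 60 and 4356 and 5039 CPM at day 90, against 217 and 1381 CPM at day 21. For Lpl edgeR gave a log2 fold change of 2.71 ± 0.61 (adjusted p = 0.136). In both genes every chronic library lay well above the higher day 21 library. Fabp4, a fatty acid carrier and textbook PPAR gamma target, had 121 and 210.3 CPM at day 60 and 48.3 and 67.7 CPM at day 90, against 2.62 and 9.15 CPM at day 21. For Fabp4 the edgeR adjusted p was 0.201. Plin2, which coats lipid droplets, had 1382 and 1488 CPM at day 60 and 600.1 and 608 CPM at day 90, against 377 and 268 CPM at day 21. Both its day 60 libraries were above both its day 90 libraries. Of the 30 genes 12 had a negative log2 fold change, among them Ch25h, cholesterol 25-hydroxylase. Ch25h had 4.32 and 2.06 CPM at day 60 and 2.12 and 1.27 CPM at day 90, against 10.6 and 40.0 CPM at day 21. For Ch25h edgeR gave a log2 fold change of -3.43 ± 0.58 (adjusted p = 0.0533). Of 23 cholesterol synthesis genes 4 lay above both day 21 libraries, and without TMM factors 0 did.

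Lysosomal and iron-handling genes gave a similar picture. Of 40 lysosomal genes 10 (25%) lay above and 1 below both day 21 libraries. None was called by edgeR, and limma-voom called 2 and DESeq2 5, all higher. Atp6v0d2, a subunit of the vacuolar proton pump, had 879 and 740.1 CPM at day 60 and 976 and 775 CPM at day 90, against 42.1 and 95.1 CPM at day 21. For Atp6v0d2 edgeR gave a log2 fold change of 3.46 ± 1.18 (adjusted p = 0.279). Ctsk, cathepsin K, had 110.4 and 488 CPM at day 60 and 229 and 332 CPM at day 90, against 1.44 and 39.1 CPM at day 21. For Ctsk the edgeR adjusted p was 0.238. Day 21 replicate 1 was the lowest library for both genes. Lipa, lysosomal acid lipase, had 1118 and 947 CPM at day 60 and 1212 and 926 CPM at day 90, against 185 and 295 CPM at day 21. For Lipa the edgeR adjusted p was 0.146. Of 28 iron, heme and antioxidant genes 13 (46.4%) lay above and 2 below, with a median log2 fold change of 0.67. Again edgeR called none, while limma-voom called 1 and DESeq2 7. Blvrb, a biliverdin reductase, had 159 and 459 CPM at day 60 and 82.2 and 183 CPM at day 90, against 16.5 and 50.6 CPM at day 21. Prdx1, a peroxiredoxin, had 1107 and 2369.9 CPM at day 60 and 672 and 1055 CPM at day 90, against 162 and 305 CPM at day 21. For both Blvrb and Prdx1 replicate 2 exceeded replicate 1 on every day. Below both was Slc40a1, the iron exporter ferroportin, with 28.3 and 22.7 CPM at day 60 and 56.5 and 39.7 CPM at day 90, against 108 and 75.8 CPM at day 21. For Slc40a1 the edgeR adjusted p was 0.293. Without TMM factors 6 lysosomal genes and 7 of the iron group lay above both day 21 libraries.

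Among phagocytic receptor and bridging genes 8 of 28 (28.6%) lay above and 0 below, and 3 were called higher, Cd36, Mfge8 and Mrc1. The median log2 fold change was 0.02 and turned negative under other scalings (-0.02 to -0.08). Msr1, a scavenger receptor, had 275 and 228 CPM at day 60 and 237 and 209 CPM at day 90, against 107 and 34.8 CPM at day 21. For Msr1 the edgeR adjusted p was 0.137. Markers of border-associated macrophages also often lay above day 21. Of 14, 7 (50%) lay above both day 21 libraries and 0 below, with a median of 0.98. Their summed level was 1892 to 2784 CPM of total counts in the chronic libraries, against 1126 and 616 CPM at day 21. Ms4a7 had 1331 and 2591 CPM at day 60 and 636 and 940.5 CPM at day 90, against 54.5 and 127 CPM at day 21. For Ms4a7 edgeR gave a log2 fold change of 3.79 ± 0.98 (adjusted p = 0.174). The platelet factor gene Pf4 had 49.99 and 94.7 CPM at day 60 and 23.3 and 32.9 CPM at day 90, against 1.44 and 5.58 CPM at day 21. For Pf4 the edgeR adjusted p was 0.1797. The folate receptor gene Folr2 had 44.4 and 66.9 CPM at day 60 and 28.6 and 38.9 CPM at day 90, against 2.88 and 12.5 CPM at day 21. For Folr2 the edgeR adjusted p was 0.384. In Ms4a7, Pf4 and Folr2 both day 60 libraries lay above both day 90 libraries. Lyve1, a defining marker, had 1.30 and 1.13 CPM at day 60 and 2.42 and 2.12 CPM at day 90, against 0.741 and 0 CPM at day 21. It was thus near 0 in all 6 libraries. The part of such macrophages in the differences of Cd36, Mfge8 and Mrc1 was not tested, and more cells of a type and more RNA per cell cannot be told apart in bulk samples.

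Of 16 genes of antigen presentation through MHC class II 5 (31.2%) lay above both day 21 libraries in all chronic libraries and 0 below, and edgeR and DESeq2 called none, while limma-voom called 1, higher. Cd74 is in the panel, and H2-Aa and H2-Eb1 were picked after their values were seen. Cd74, the invariant chain, had 34132 and 67815 CPM at day 60 and 19027 and 35014 CPM at day 90, against 15475 and 4121 CPM at day 21. For Cd74 the edgeR adjusted p was 0.317. H2-Aa, a class II alpha chain, had 9600.1 and 18188 CPM at day 60 and 6029.9 and 8355 CPM at day 90, against 3101 and 543 CPM at day 21. For H2-Aa edgeR gave a log2 fold change of 2.60 ± 0.79 (adjusted p = 0.240). H2-Eb1, a beta chain, had 7418 and 18291 CPM at day 60 and 5055 and 9631 CPM at day 90, against 2794 and 562 CPM at day 21. For H2-Eb1 the edgeR adjusted p was 0.258. Here day 21 replicate 2 was the lowest of the 6 libraries for each gene and day 21 replicate 1 the next lowest. The median difference over the 16 genes was 0.06 within replicate 1 and 2.12 within replicate 2. Class I genes gave 2 above and 2 below of 16. In H2-DMb2 and H2-Eb2 of the class II list and H2-Q4 and H2-T10 of the class I list, replicate 2 was at least 16 times above replicate 1 at both chronic days.

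The panel of microglial and disease-associated genes shows how far the day 21 libraries diverged. Apoe, the main lipid carrier of the brain, had 85014 and 91576 CPM at day 60 and 36792 and 36391 CPM at day 90, against 17968 and 109019 CPM at day 21. Spp1, which encodes osteopontin, had 5468 and 5211 CPM at day 60 and 2429 and 2144 CPM at day 90, against 1072 and 5196 CPM at day 21. The chronic libraries of Apoe lay between the day 21 libraries, and for Spp1 the day 60 libraries lay slightly above the higher of them. The lipid receptor gene Trem2 had 1238 and 3377 CPM at day 60 and 837 and 1501 CPM at day 90, against 327 and 2696 CPM at day 21. Its chronic libraries overlapped the higher day 21 library. Gpnmb, a glycoprotein of phagocytes, lay above both, with 7718 and 6966 CPM at day 60 and 7747 and 7901 CPM at day 90, against 709 and 2238 CPM at day 21. For Gpnmb edgeR gave a log2 fold change of 2.37 ± 1.22 (adjusted p = 0.424). Cst7, an inhibitor of cathepsins, lay below both, with 33.6 and 35.8 CPM at day 60 and 19.0 and 22.2 CPM at day 90, against 106 and 892 CPM at day 21. For Cst7 edgeR gave a log2 fold change of -4.03 ± 0.69 (adjusted p = 0.0533). Here the chronic libraries lay close together and the day 21 libraries far apart. Csf1, the colony-stimulating factor on which microglia depend, had 21.8 and 12.4 CPM at day 60 and 10.2 and 7.68 CPM at day 90, against 190.4 and 244 CPM at day 21. For Csf1 edgeR gave a log2 fold change of -4.14 ± 0.66 (adjusted p = 0.0527). The galectin gene Lgals3 had 7104 and 13224 CPM at day 60 and 3531 and 4945 CPM at day 90, against 969 and 537 CPM at day 21. For Lgals3 edgeR gave a log2 fold change of 3.20 ± 0.69 (adjusted p = 0.118). For Csf1 and Lgals3 the day 21 libraries were close to each other relative to their distance from the chronic ones. Of 36 disease-associated genes 10 lay above and 5 below, and none was called by edgeR (limma-voom called 4 higher and 4 lower, DESeq2 5 and 5). The median was 1.20 within replicate 1 and -0.16 within replicate 2.

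**Figure D3:**
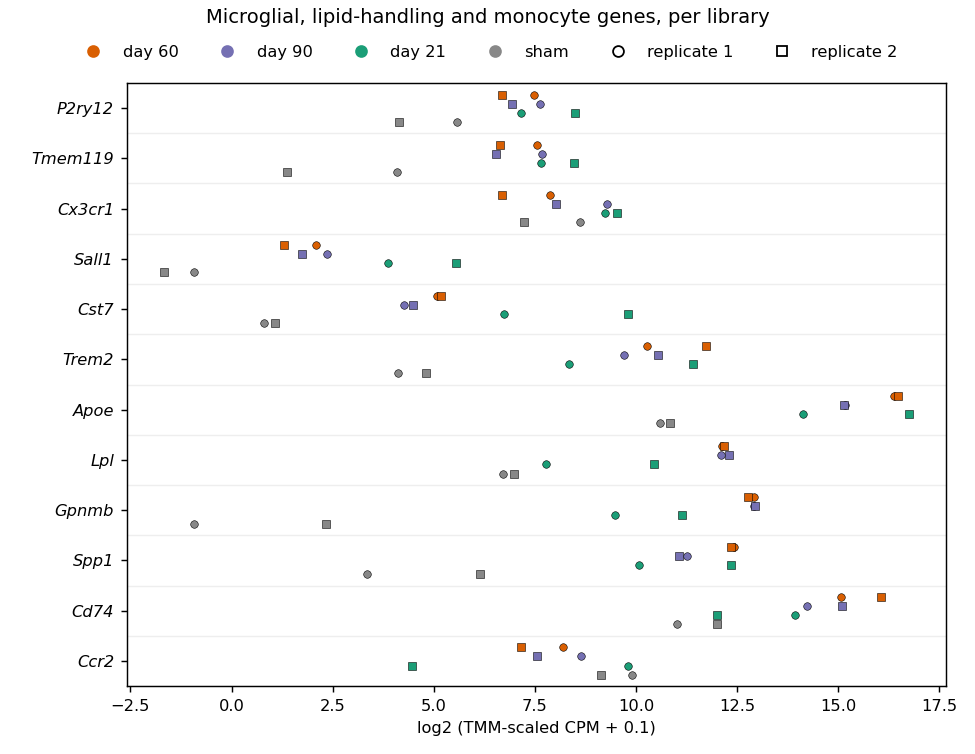
TMM-scaled CPM of the 12 panel genes on a log2 axis (0.1 added), 1 point per library, with circles for replicate 1 and squares for replicate 2. For Lpl, Gpnmb and Cd74 all 4 chronic points lie right of both day 21 points and for Sall1 and Cst7 left of them, while the 2 day 21 points of Apoe, Trem2, Spp1 and Ccr2 lie far apart.

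Homeostatic microglial genes were below day 21 in many cases and above it in none. Of 38 genes 17 (44.7%) lay below both day 21 libraries, 0 above, and 37 had a negative log2 fold change. The median was -1.31, with -0.43 within replicate 1 and -1.82 within replicate 2. Only Egr1, which is also in the immediate early list, was called by edgeR, and limma-voom called 4 and DESeq2 12, all lower. The transcription factor gene Sall1, which maintains microglial identity, had 4.17 and 2.34 CPM at day 60 and 5.01 and 3.25 CPM at day 90, against 14.5 and 46.7 CPM at day 21. For Sall1 edgeR gave a log2 fold change of -2.88 ± 0.66 (adjusted p = 0.137). Lag3, an inhibitory receptor, had 2.79 and 3.81 CPM at day 60 and 1.87 and 2.17 CPM at day 90, against 18.9 and 54.8 CPM at day 21. For Lag3 edgeR gave a log2 fold change of -3.78 ± 0.80 (adjusted p = 0.118). Sparc, a matrix glycoprotein gene, had 174 and 212 CPM at day 60 and 186 and 235 CPM at day 90, against 369.5 and 2111 CPM at day 21. For Sparc the edgeR adjusted p was 0.170. In these 3 genes replicate 2 of day 21 was the highest library. The ADP receptor gene P2ry12 had 179 and 102 CPM at day 60 and 198 and 122 CPM at day 90, against 142 and 358 CPM at day 21. Tmem119 had 187 and 98.96 CPM at day 60 and 204 and 92.6 CPM at day 90, against 201 and 350.2 CPM at day 21. The receptor gene for fractalkine, Cx3cr1, had 235 and 103 CPM at day 60 and 626 and 260.3 CPM at day 90, against 597 and 742 CPM at day 21. All 3 overlapped day 21 (edgeR adjusted p = 0.559, 0.427 and 0.293 for P2ry12, Tmem119 and Cx3cr1).

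Immediate early genes, which respond within minutes to stimuli, often lay below day 21 as well. Of 30 genes 10 (33.3%) lay below and 3 above both day 21 libraries, with a median of -0.76. Egr1 was called by edgeR, and limma-voom called 3 and DESeq2 8, all lower. Ier2 had 275 and 146 CPM at day 60 and 192 and 103 CPM at day 90, against 834 and 588 CPM at day 21. For Ier2 edgeR gave a log2 fold change of -2.06 ± 0.34 (adjusted p = 0.0533). The antiproliferative gene Btg2 had 493 and 204 CPM at day 60 and 555 and 202 CPM at day 90, against 1596 and 582 CPM at day 21. For Btg2 the edgeR adjusted p was 0.0934. Fos, a subunit of the AP-1 factor, had 2438 and 1920.4 CPM at day 60 and 1694 and 1193 CPM at day 90, against 4048 and 2877 CPM at day 21. Jun, its partner, had 587 and 262 CPM at day 60 and 683 and 362 CPM at day 90, against 1665 and 817 CPM at day 21. In these 4 genes replicate 1 exceeded replicate 2 on every day. The heat shock genes Hspa1a and Hspa1b went the other way and lay above both, at 1448 and 1315 CPM at day 60 and 1126 and 1209 CPM at day 90, against 1003 and 562 CPM at day 21 for Hspa1a. The time from dissection to lysis was not given in the sources used here.

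Cytokine genes lay more often below than above day 21, and chemokine genes more often above. Of 30 cytokine and NF-kB target genes 8 (26.7%) lay below and 1 above, with a median of -0.48. edgeR called none of them (limma-voom 1 and DESeq2 1 lower, DESeq2 1 higher). Osm, the cytokine oncostatin M, had 275 and 155 CPM at day 60 and 161 and 85.8 CPM at day 90, against 631 and 322 CPM at day 21. For Osm the edgeR adjusted p was 0.102. The 1 gene above was Il10, an anti-inflammatory cytokine gene, with 14.7 and 16.02 CPM at day 60 and 3.25 and 2.78 CPM at day 90, against 1.31 and 0 CPM at day 21. For Il10 edgeR gave a log2 fold change of 4.15 ± 1.31 (adjusted p = 0.258). Both its day 60 libraries lay above both its day 90 libraries. Of 25 chemokine genes 7 (28%) lay above and 1 below. Ccl8 had 85.9 and 175 CPM at day 60 and 17.98 and 19.2 CPM at day 90, against 3.27 and 11.2 CPM at day 21. Cxcl16, a scavenger receptor as well as a chemokine, had 1097 and 1376 CPM at day 60 and 708 and 731 CPM at day 90, against 344 and 427 CPM at day 21. edgeR called neither, and both were higher at day 60 than at day 90 in each library. Of 26 growth factor and TGF-beta genes 8 (30.8%) lay below and 3 above. Smad7, the feedback inhibitor of TGF-beta signalling, had 5.51 and 3.13 CPM at day 60 and 5.78 and 2.94 CPM at day 90, against 24.7 and 16.6 CPM at day 21. For Smad7 edgeR gave a log2 fold change of -2.30 ± 0.41 (adjusted p = 0.0617). Gdf15, a stress-induced cytokine gene, had 414 and 329 CPM at day 60 and 119 and 67.5 CPM at day 90, against 16.2 and 53.6 CPM at day 21. For Gdf15 the edgeR adjusted p was 0.288. The 2 chronic days overlapped for Smad7, while both day 60 libraries of Gdf15 lay above both at day 90.

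Metabolic and division genes went in both directions, and in some lists the number above day 21 depended on the scaling. Of 23 glycolysis and hypoxia genes 6 (26.1%) lay below and 1 above. Among those below, Hif1a, the hypoxia-inducible factor, had 150.4 and 115 CPM at day 60 and 135 and 118 CPM at day 90, against 421 and 405 CPM at day 21. For Hif1a the edgeR adjusted p was 0.146. Slc2a1, the glucose transporter, had 68.0 and 78.2 CPM at day 60 and 71.5 and 65.1 CPM at day 90, against 234 and 214 CPM at day 21. For Slc2a1 the edgeR adjusted p was 0.190. In both genes the chronic libraries lay close together, as did the day 21 libraries. All 36 respiratory chain genes had a positive log2 fold change with a median of 0.52, and 6 lay above both day 21 libraries. Without TMM factors 2 did, and the median was 0.18. Of 44 cell cycle genes 13 (29.5%) lay above and 0 below, but without TMM factors 4 did. Their median was 0.77, and 0.69 without TMM factors. It was 0.09 within replicate 1 and 1.64 within replicate 2. Of 23 unfolded protein response genes 7 lay below and 1 above. The 43 ribosomal protein genes had 0 on either side. edgeR called no member of these 5 lists (DESeq2 6 lower in the glycolysis list and 1 lower, Chac1, in the unfolded protein list, limma-voom 0).

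**Figure D4:**
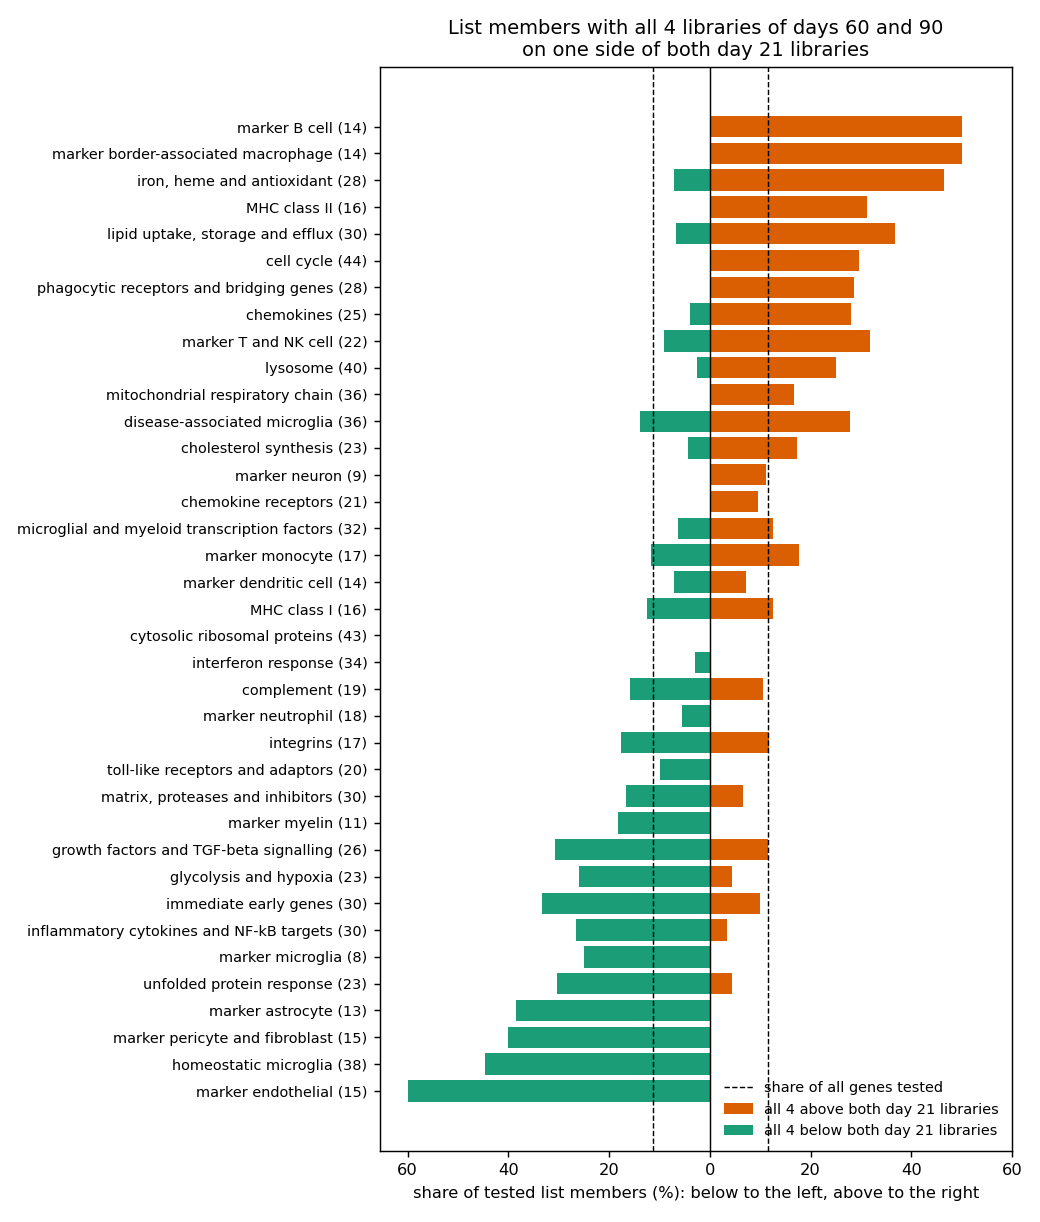
Share of tested members of each list, in percent, whose 4 chronic libraries lay above (orange, right) or below (green, left) both day 21 libraries, with the number of members tested in brackets and dashed lines at the share of all genes, 11.6% above and 11.3% below. Border-associated macrophage and B cell markers (50% each) and iron (46.4%) and lipid (36.7%) genes reach far to the right. Homeostatic microglial genes (44.7%) and endothelial markers (60%) reach far to the left.

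The other lists lay near the background in at least one direction. Matrix and protease genes had 2 of 30 above, Mmp12 and Mmp14, and 5 below. Fn1, fibronectin, lay below with 34.8 and 41.4 CPM at day 60 and 60.9 and 87.8 CPM at day 90, against 591 and 343 CPM at day 21. For Fn1 the edgeR adjusted p was 0.134. Mmp14, a membrane-bound collagenase, had 417 and 367 CPM at day 60 and 273 and 280.4 CPM at day 90, against 117 and 129 CPM at day 21. For Mmp14 the edgeR adjusted p was 0.254. Every chronic library was far below day 21 for Fn1 and well above it for Mmp14. Integrins had 2 of 17 above and 3 below, and complement genes 2 of 19 above and 3 below. Transcription factors had 4 of 32 above and 2 below, and without TMM factors 2 and 6. Chemokine receptors had 2 of 21 above and 0 below, and toll-like receptor genes 0 of 20 above and 2 below. Pparg was the only one of these transcription factors called by edgeR, and Nr1h3 the next by adjusted p.

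Markers of other cell types were not even across the 6 libraries. B cell markers had 7 of 14 (50%) above both day 21 libraries and 0 below. They summed to 419 to 1586 CPM of total counts in the chronic libraries and 779 and 348 CPM at day 21. Cd79b, a chain of the B cell receptor, had 70.7 and 95.7 CPM at day 60 and 69.9 and 82.5 CPM at day 90, against 20.7 and 14.4 CPM at day 21. For Cd79b the edgeR adjusted p was 0.149. Without TMM factors 4 of the B cell markers lay above. T and NK cell markers had 7 of 22 above and 2 below, and without TMM factors 2 and 2. Endothelial markers had 9 of 15 (60%) below and 0 above, among them Esam, a junction protein gene. Esam had 0.956 and 1.28 CPM at day 60 and 2.01 and 1.89 CPM at day 90, against 6.28 and 28.7 CPM at day 21. For Esam the edgeR adjusted p was 0.0533. Pericyte and fibroblast markers had 6 of 15 below, among them Cspg4, which encodes the proteoglycan NG2. Cspg4 had 0.191 and 0.177 CPM at day 60 and 0.991 and 0.466 CPM at day 90, against 12.3 and 22.1 CPM at day 21. For Cspg4 edgeR gave a log2 fold change of -5.53 ± 0.93 (adjusted p = 0.0533). Day 21 replicate 2 was the highest library for both Esam and Cspg4. Astrocyte markers had 5 of 13 below, myelin markers 2 of 11 below and neuron markers 1 of 9 above. Summed as CPM of total counts, endothelial markers ranged from 473 to 790 in the chronic libraries, against 548 and 1075 at day 21. Astrocyte markers ranged from 32.4 to 79.2, against 98.4 and 184 at day 21.

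Blood-borne myeloid markers split the 2 day 21 libraries. Monocyte markers summed to 1734 to 1873 CPM of total counts in the 4 chronic libraries, against 6049 CPM in day 21 replicate 1 and 1401 CPM in day 21 replicate 2. The monocyte chemokine receptor gene Ccr2 had 294 and 142 CPM at day 60 and 401 and 187 CPM at day 90, against 891 and 21.9 CPM at day 21. For Ccr2 the edgeR adjusted p was 0.861. Dendritic cell markers summed to 346 to 752 CPM in the chronic libraries, 2572 CPM in day 21 replicate 1 and 120 CPM in replicate 2. Of the monocyte list 3 of 17 lay above and 2 below, and of the neutrophil list 0 of 18 above and 1 below, Csf3r. Of the dendritic cell list 1 of 14 lay on each side. The 5 erythroid markers measured were at or near 0 in all 6 libraries. Day 21 replicate 1 was thus the richer in monocyte, neutrophil and dendritic cell markers and replicate 2 the poorer. The part of cell makeup in the 18 calls was not tested.

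**Figure D5:**
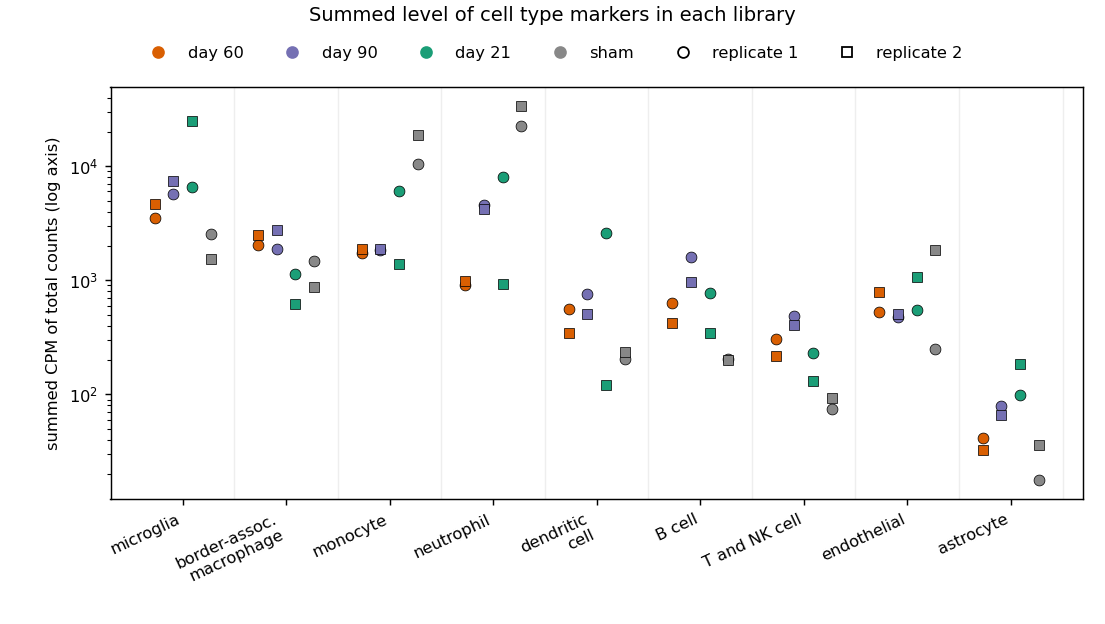
Summed CPM of total counts of 9 marker lists on a log axis, 1 point per library, with circles for replicate 1 and squares for replicate 2, in the order day 60, day 90, day 21 and sham within each list. The 2 day 21 points of the microglia, monocyte, neutrophil and dendritic cell lists lie apart (6049 and 1401 for monocytes), while the 4 chronic points of the monocyte list lie between 1734 and 1873.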

How the data were processed

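Whole-number counts per gene were deposited by the authors, in 1 table of the series and 1 file per library. All 14084 values agreed between them, 23 symbols had become dates in the latter, and 0 sample columns were left unmapped. The submitters' processing notes name Bowtie2 2.3.4.2, HTSeq 0.6.1 and build mm9. Which annotation and strand setting were used, and how reads with several alignments were treated, was not given in the sources used here.

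The counts were tested with edgeR 4.0.16 under R 4.3.3 (TMM scaling, filter by group leaving 13861 genes and removing 223). Its quasi-likelihood model had group means and the replicate number as block and took in all 14 libraries (6 residual degrees of freedom, common biological coefficient of variation 0.5138). The contrast was the mean of days 60 and 90 minus day 21. Calls are genes with an adjusted p under 0.05 (Benjamini-Hochberg over all genes tested). A standard error is the log2 fold change divided by the square root of F. Sides were read from TMM-scaled log2 CPM with a prior count of 2. At these totals 3 counts correspond to 0.1043 to 0.1771 CPM in replicate 1 and 0.01565 to 0.02574 CPM in replicate 2, which covers counting error only. Libraries of a group differed by more than sampling noise (chi-square per degree of freedom at least 408).

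The pairing was checked by the correlation of deviations from group means between libraries of the same number. It was 0.341 to 0.677 for the 3 pairs among days 21, 60 and 90, and over 0.1 in 20 of 21 pairs over all groups. Alternatives were limma 3.58.1 (voom), DESeq2 1.42.0, other scalings, filters and library sets.

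The 25 gene lists, 13 marker lists and the libraries compared were chosen with earlier results of these data known. Of 912 listed symbols 884 were in the table, 3 of them through a synonym, and 86 genes are in more than 1 list. Of 14 border-associated macrophage markers 4 are also in another list. So are 23 of 36 disease-associated, 16 of 38 homeostatic, 14 of 28 phagocytic, 13 of 40 lysosomal and 12 of 30 lipid genes. These lists are therefore not independent of each other. Named genes are, in each direction, the 14 called genes with the largest change among those on one side whose log2 CPM averaged 3 or more, up to 4 called members per list, and the panel of 12. Of the 18 called genes 13 followed this rule. Other list members named were picked after their values were seen. They are one-sided, except Irf7, Isg15, Rsad2, Camk2a, Pdgfrb, H2-DMb2, H2-Eb2, H2-Q4 and H2-T10. Shared sequence was sought with 50-base words of the reference transcripts, and no called gene had more than 2.13% of its words in another gene. The reference is another build (GRCm38), so only promoters carry coordinates.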

Additional observations from a re-analysis of the deposited data

How the results depend on the processing

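The 18 calls between days 60 and 90 and day 21 were all kept under RLE and upper-quartile scaling (18 calls each), no filter (21), a filter of at least 1 CPM in 2 of the 6 libraries (18), no robust dispersion (21) and thinning of replicate 2 to the depth of replicate 1 (47). Without the sham libraries 20 were called, 16 of them shared, and Kcnn4 (edgeR adjusted p = 0.0509) and Slc41a2 (0.0535) no longer passed. DESeq2 called 581 and limma-voom 220, and a minimum fold of 2 left 4. Without the replicate block 15 were called, 11 of them shared. With only the 6 libraries and the block 0 were called, either with a mean per day or as 4 against 2 (lowest edgeR adjusted p = 0.0900 and 0.0608), and 9 without the block. Leaving out 1 library gave 0 to 564 calls, 0 without day 21 replicate 2 and 564 without day 21 replicate 1. For day 60 against day 21 the 7 calls became 734 with DESeq2, 42 with limma-voom, 3 at a minimum fold of 2, 3 without the block, 0 with the 6 libraries, 3 without sham and 0 to 463 with 1 library left out. For day 90 against day 21 the 12 calls became 228, 41, 5, 5, 0, 6 and 0 to 452 in that order. Day 90 against day 60 gave 0 calls with edgeR, 51 with DESeq2 and 1 with limma-voom. The one-side count of 3174 ranged from 3547 to 8336 with 1 library left out and was 2908 without TMM factors. Fewer libraries make the one-side condition easier to meet, so the rise with 1 left out was largely set in advance. All 18 called genes lay on one side of both day 21 libraries, so a change of direction was hardly open to them. Over these alternatives none of them changed direction, with 212 values that still passed and 148 that did not. Uncalled panel genes did: Apoe (-0.19) was 0.39 with limma-voom and 0.16 and 0.30 in the 6-library blocked fits, and Ccr2 (-0.33) was 0.73, 0.18 and 0.19. With 1 library left out P2ry12 ranged from -1.59 to 0.30, Tmem119 from -2.06 to 0.16, Trem2 from -0.66 to 2.16, Apoe from -1.19 to 1.94, Spp1 from -0.65 to 1.76 and Ccr2 from -1.47 to 2.98. The causes were not tested. An exact permutation test of 4 against 2 cannot go below p = 0.0667.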

Other observations

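A set of 81 genes had both replicate 2 libraries of days 60 and 90 at least 16 times above both replicate 1 libraries (0.5 CPM added), and 0 genes had the reverse. In 61 of them day 21 replicate 2 was also at least 16 times above day 21 replicate 1. Srp54a, a signal recognition particle gene of this kind, had 0.268 and 4078 CPM at day 60, 0.0275 and 2807 CPM at day 90 and 0.305 and 1705 CPM at day 21. Others were high in the chronic replicate 2 libraries but not at day 21. Camk2a, a kinase gene of neurons, had 1.42 and 1759.8 CPM at day 60, 0.496 and 942 CPM at day 90 and 0.83 and 3.64 CPM at day 21. Pdgfrb, the growth factor receptor of pericytes, had 3.10 and 2004 CPM, 6.33 and 1079 CPM and 4.45 and 24.7 CPM at those days. None of the 18 called genes was in this set, but Dpep3 missed it only through the 0.5 CPM added. Its levels were 0.268 and 7.74 CPM at day 60 and 0.0826 and 30.4 CPM at day 90. Of 76 genes of the set found in the reference transcripts, 39 shared at least 20% of their 50-base words with another gene, among them Srp54a (78.5%), while Camk2a (0.194%) and Pdgfrb (0%) shared little or none. How reads with several alignments were counted was not given in the sources used here, and its part was not tested.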
